A study of Arabidopsis thaliana x Arabidopsis lyrata and Arabidopsis thaliana x Arabidopsis halleri with 18 samples.

Results

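In the F1 hybrids labelled ColxMN47, the *A. thaliana* copy and the copy inherited from the other species were compared gene by gene inside the same plant. All 9 ColxMN47-labelled plants of the 18 plants in the series entered. A gene was tested where the read numbers of its 2 alleles summed to a mean of at least 10 per plant, which 11697 of 16419 listed genes did and 4722 did not. The lowest mean sum inside this limit was 10, reached by 22 genes, and the highest outside it was 9.889, shared by 23 genes.

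Each plant was 1 F1 individual of *A. thaliana* Col-0 crossed to a second species, and its whole aerial part gave 1 library. The 9 plants were 3 cold plants, held for 1 hour at 4 °C, 3 dehydrated plants, taken off the agar and dried for 1 hour at 22 °C, and 3 standard plants, kept at 22 °C. All were 4 weeks old. Cold and dehydration were applied under dim light, which the labels do not state for standard plants, and the standard material was called leaf samples. The 9 Colxhalleri-labelled plants, which had the same treatments with 3 plants each, were used only as a comparison. All 18 plants carried the Col-0 genome as 1 of their 2 parental genomes.

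The labels and the column headings name different species for the second allele. The labels give *A. lyrata* MN47 as the other parent of the ColxMN47 plants, whereas the second allele column of their files is headed Aha, and that of the Colxhalleri-labelled plants is headed Aly. The zinc transport genes HMA4 and MTP1 (listed as ZAT) are known for high expression in *A. halleri*, a zinc and cadmium hyperaccumulator. In ColxMN47-labelled plants the second allele of both was well above the thaliana allele. In Colxhalleri-labelled plants HMA4 was near balance, and MTP1 was higher from the second allele by a mean log2 ratio of 0.58 (values below). For these 2 genes the values go against the species in the label. Whether labels or headings were exchanged was not tested. The plants are called here by the labels they were deposited under, with no species assigned to the non-thaliana copy, which is called the second allele.

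In an F1 hybrid both parental copies of a gene lie in the same nuclei and meet the same regulatory proteins, so each plant carries its own internal control for the other copy. Differences between the copies are classically assigned to sequence in or near the gene, while effects of diffusible regulators fall on both. *Arabidopsis* species differ in metal tolerance, water use and defence chemistry, and hybrids with *A. thaliana* are used to compare their alleles in 1 cellular setting.

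The thaliana sequence upstream of 3 genes with unequal alleles is shown for orientation. HMA4 exports zinc from root cells to the xylem, P5CS1 makes the osmolyte proline, and RD29A (listed as LTI78) is a classic cold and drought response gene. Each window is the 250 bases before the annotated gene start in RefSeq TAIR10.1, 5′ to 3′ on the gene's strand. The windows are chr2:8278539-8278788 on the plus strand for HMA4, chr2:16603320-16603569 on the minus strand for P5CS1 and chr5:21240467-21240716 on the plus strand for RD29A. Capitals mark TATAAA or TATATA on the gene's strand and, on either strand, CCGAC, the core of the dehydration-responsive element, and ACGTG, a core bound by abscisic acid response factors. The matching stretches of the second allele were not analysed here.
HMA4: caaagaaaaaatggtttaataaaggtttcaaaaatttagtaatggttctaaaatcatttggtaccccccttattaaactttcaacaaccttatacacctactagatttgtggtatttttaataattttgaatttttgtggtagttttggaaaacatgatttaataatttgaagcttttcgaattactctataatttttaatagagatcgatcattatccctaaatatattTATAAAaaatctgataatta
P5CS1: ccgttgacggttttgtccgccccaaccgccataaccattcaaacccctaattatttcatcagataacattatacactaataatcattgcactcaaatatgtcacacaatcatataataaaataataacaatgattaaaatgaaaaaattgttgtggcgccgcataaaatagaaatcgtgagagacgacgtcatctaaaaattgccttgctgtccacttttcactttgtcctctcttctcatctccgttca
RD29A: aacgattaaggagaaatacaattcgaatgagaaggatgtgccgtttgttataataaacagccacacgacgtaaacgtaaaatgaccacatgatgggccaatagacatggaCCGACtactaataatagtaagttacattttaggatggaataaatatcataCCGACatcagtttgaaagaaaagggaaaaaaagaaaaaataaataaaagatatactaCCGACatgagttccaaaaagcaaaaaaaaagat

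The HMA4 window held 1 TATAAA, the RD29A window held 3 CCGAC and the P5CS1 window held none of the 4 motifs. Over the 11691 tested genes with such a window, 46.13% had TATAAA or TATATA, 13.46% had CCGAC and 23.33% had ACGTG. The share with TATAAA or TATATA was 48.6% in windows of genes with a second allele at least 2-fold higher, 50.57% in those with a thaliana allele at least 2-fold higher and 46.11% in those not called. Genes in these 3 classes also differed in length. Medians were 2246 and 2262 bases for the 2 unequal classes, 2663 bases for those not called and 2579 bases over all tested genes. These shares describe the letters in the windows and were not tested.

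The deposited value of an allele is a read number scaled per library, with 1 added. It is given below with that 1 taken off, and the ratio was taken on the deposited values, so that it understates the difference of low genes. The scaled totals lay between 1527213 and 1530313 per plant because every library had been brought to about the same total, and the depth before scaling is unknown. Between 9493 and 11485 genes per plant had an allele sum of at least 10. Since each library mixes many cells of the aerial part or leaves, fewer cells of a type and less RNA per cell cannot be told apart in a level. None of the floral organ markers listed reached the limit, and the listed genes with the highest summed values, not corrected for length, were those of photosynthesis.

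As a whole, 8 plants were close to allele balance and 1 was not. In the second replicate of the dehydrated plants the second allele held 38.97% of the scaled reads and the thaliana allele 61.03%. Elsewhere the second allele held from 48.93% to 50.86% and the thaliana allele from 49.14% to 51.07%. The median log2 ratio of the second over the thaliana allele was −0.59 there and from 0 to 0.08 in the remaining 8 plants. Its ratio was below the mean of the other 8 plants for 88.49% of genes, by a median of 0.64 on the log2 scale, and by 0.63 to 0.65 on each of the 5 chromosomes. List counts that moved by over 1.5 times without this plant are given both ways. Over the 36 pairs of plants, Pearson's r of the ratio across genes lay between 0.49 and 0.77.

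**Figure D1:**
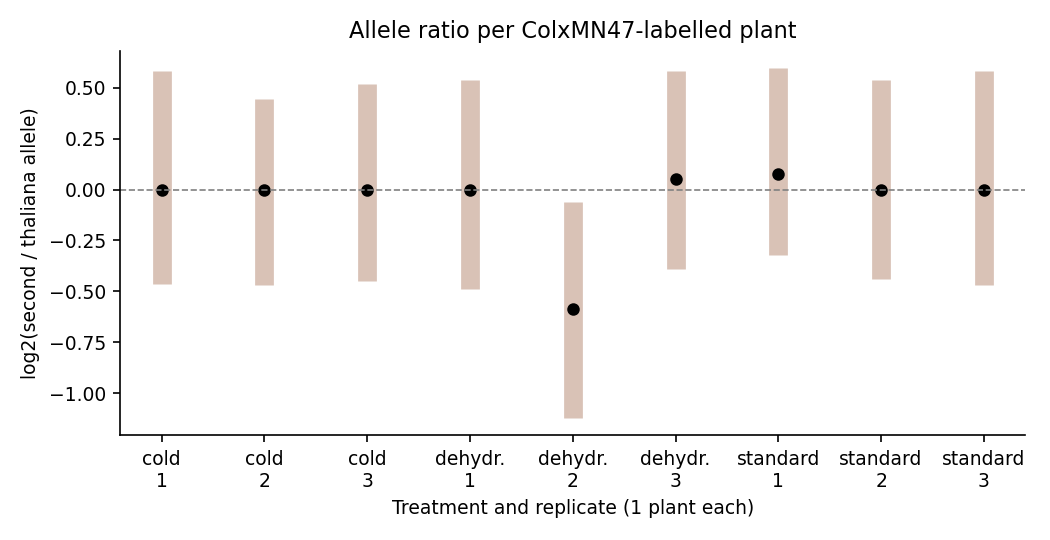
The allele ratio in each of the 9 ColxMN47-labelled plants, on a log2 scale. Points are medians over genes and bars run from the lower to the upper quartile; the dehydrated plant of replicate 2 has its median at −0.59 and the other 8 lie between 0 and 0.08.

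Over the 9 plants, 5409 of the 11697 genes had alleles that differed (limma with Benjamini-Hochberg adjusted p below 0.05), which is 46.2% of those tested. The second allele was higher in 2567 genes, 21.9% of those tested, and the thaliana allele in 2842, or 24.3%. Which direction held more genes depended on 1 plant: without the second dehydrated replicate the counts were 3054 for the second allele and 2517 for the thaliana allele. Most differences were small. Of the genes called, 3720 differed by less than 2-fold. The second allele was at least 2-fold higher in 894 genes and at least 8-fold higher in 84. The thaliana allele was at least 2-fold higher in 795 and at least 8-fold higher in 45. The median log2 ratio was −0.03 over all tested genes (0.04 without that plant), with quartiles at −0.42 and 0.39 and a median standard error of 0.16. For 2462 genes the 95% interval of the mean ratio lay within −0.5 to 0.5.

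The direction in single plants was counted as well. In 1050 genes, 8.98% of those tested, all 9 plants had the second allele higher, and in 1311, or 11.2%, all 9 had the thaliana allele higher. Of the genes called, 5049 or 93.34% had the same direction in the means of all 3 treatments. Calls were made on the average of these same means, so this agreement is partly built in. The 5 chromosomes were alike in description: between 21.3% and 22.51% of genes were called toward the second allele and between 22.89% and 25.84% toward the thaliana allele.

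The share of calls toward the thaliana allele differed with level. Genes were split into 4 classes of equal size by their mean sum. Toward the second allele, 23.21%, 22.4%, 21.65% and 20.52% of genes were called, from the lowest class to the highest. Toward the thaliana allele it was 18.02%, 22.95%, 24.38% and 31.84%. The median standard error was 0.21 in the lowest class and 0.13 in the highest, and its part in these shares was not tested.

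**Figure D2:**
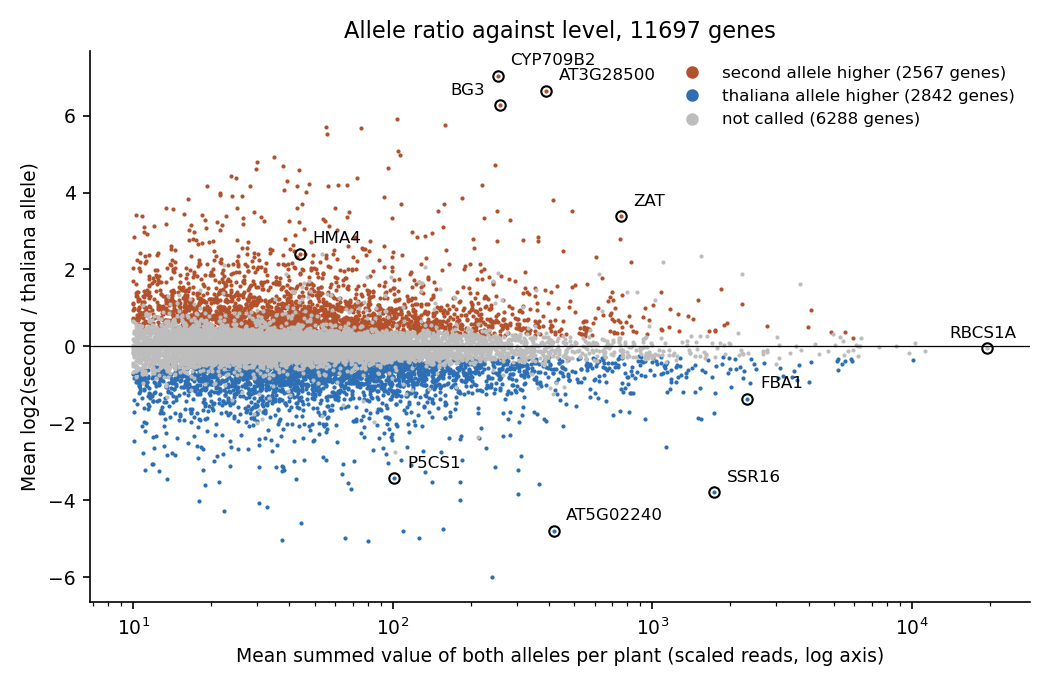
Mean log2 ratio of the second over the thaliana allele against the mean summed value of both alleles per plant, on a log axis, for 11697 genes. Colours give the 2567 genes with the second allele higher, the 2842 with the thaliana allele higher and the 6288 not called; named genes are circled.

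Some genes were read from 1 allele alone. The thaliana allele was listed at 0 in all 9 plants in 13 genes and the second allele in 1. AGO5 (chr2:11871378-11876989), an Argonaute protein of small RNA pathways, had 20, 35 and 69 second allele reads in cold plants, 86, 74 and 60 in dehydrated plants and 40, 62 and 54 in standard plants, with the thaliana allele listed at 0 in every one. PAL3 (chr5:1160569-1163957), a member of the family that starts phenylpropanoid synthesis, had its second allele listed at 0 in all 9 plants. Its thaliana allele had 26, 13 and 45 reads in cold plants, 12, 18 and 13 in dehydrated plants and 4, 35 and 36 in standard plants. The same one-sided listing toward the second allele was seen for the cytochrome P450 gene CYP71B14 (second allele lowest 1, median 20 and highest 161), a rhamnogalacturonate lyase family gene, AT4G24430 (7, 28 and 78), the cell wall acetylation family gene TBL15 (4, 25 and 46) and the TRAF-like gene AT3G58440 (6, 24 and 45). AT5G43770, a proline-rich family gene, had second allele reads in 4 plants alone and was not called. In Colxhalleri-labelled plants the thaliana allele of AGO5, CYP71B14, AT3G58440 and AT4G24430 was also listed at 0 in all 9. There AT4G24430 had its second allele at 0 as well, and AT3G58440 had at most 4 second allele reads. TBL15 had up to 2 thaliana allele reads there, and PAL3 had a mean log2 ratio of 0.07. The rule that assigned reads to an allele is not known here, so that a listing at 0 is a statement about assigned reads.

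Among genes with both alleles seen in most plants, the largest differences toward the second allele were in a mixed set. AT3G28500 (chr3:10682029-10682979), a cytosolic ribosomal P protein, had 176, 814 and 641 second allele reads in cold plants, 310, 372 and 715 in dehydrated plants and 135, 147 and 167 in standard plants, against 3, 1 and 5, then 1, 5 and 8, then 0, 0 and 4 for the thaliana allele. The lowest second allele value was above the highest thaliana value, and the log2 ratio was 6.64 ± 0.35 (SE, n = 9 plants; limma adjusted p = 2.94e-06). BG3, a beta-1,3-glucanase, had a second allele median of 80 and a thaliana allele median of 1 (log2 ratio 6.26 ± 0.39). BCA3, a beta carbonic anhydrase, which interconverts carbon dioxide and bicarbonate, had medians of 197 and 8 for the second and the thaliana allele (4.70 ± 0.38). CHAT, which makes the green leaf volatile hexenyl acetate, had medians of 54 and 1 (4.18 ± 0.26), and PRR1, here pinoresinol reductase of lignan synthesis and not a clock gene, had 70 and 4 (3.89 ± 0.14). The other 5 of the 10 named this way were a methyltransferase gene, AT1G24735, a glycosyltransferase gene, AT1G10400, a Cox19-like gene, AT5G09570, a late embryogenesis abundant family gene, AT5G06330, and AT1G76955, with log2 ratios between 4.19 and 5.76.

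Toward the thaliana allele the 10 largest included genes of translation and starch. SSR16 (chr4:16534855-16536224), a ribosomal protein of the organelle small subunit, had 138, 151 and 112 second allele reads in cold plants, 35, 44 and 69 in dehydrated plants and 297, 149 and 178 in standard plants. Its thaliana allele had 2860, 1550 and 1973, then 746, 1364 and 1247, then 1392, 1450 and 1780 in the same groups. The highest second allele value was below the lowest thaliana value, and the log2 ratio was −3.79 ± 0.15 (SE, n = 9; limma adjusted p = 2.04e-08). ADG1, the small subunit of ADP-glucose pyrophosphorylase and so of starch synthesis, had medians of 18 and 278 for the second and the thaliana allele (−3.83 ± 0.29). AT3G18680, an amino acid kinase family gene, had 3 and 117 (−4.74 ± 0.43), and AT5G02240, a Rossmann-fold protein, had 8 and 433 (−4.79 ± 0.14). The AT5G02240 average covers unlike treatments, at −6.64 in cold, −6.30 in dehydrated and −1.42 in standard plants. The remaining 6 were AT4G18440, AT4G32590, AT2G38450, the receptor kinase gene LRR XI-23, AT5G18150 and AT5G14120, at log2 ratios from −3.58 to −5.06.

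In the fit used here, metal homeostasis was the list with the highest share of calls toward the second allele. Of its 25 tested genes 14 were higher from the second allele, or 56%, against 21.9% of all tested genes, and 2 were higher from the thaliana allele. Its median log2 ratio was 0.63, against −0.03 over all tested genes, and 10 of its genes had a second allele at least 2-fold higher. Among genes with a mean sum of at least 50, the share was higher in cold response (6 of 9 genes) than in metal homeostasis (9 of 15). Without the second dehydrated replicate, the 2 tested root markers were both called toward the second allele. All lists were chosen with earlier results of these data known. Their ranks and shares, here and below, are a description and were not tested.

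MTP1 (ZAT, chr2:19235374-19239577), which loads zinc into the vacuole, had 307, 366 and 582 second allele reads in cold plants, 1031, 671 and 487 in dehydrated plants and 1816, 468 and 506 in standard plants. Its thaliana allele had 46, 44 and 50, then 88, 73 and 30, then 158, 38 and 47 in the same groups. The 2 alleles did not overlap, and the ratio lay between 2.71 and 3.98 on the log2 scale in every plant, with a mean of 3.38 ± 0.11 (SE, n = 9; limma adjusted p = 7.03e-09). HMA4 had 47, 41 and 41 second allele reads in cold plants, 37, 12 and 25 in dehydrated plants and 38, 48 and 46 in standard plants, against 7, 4 and 5, then 6, 2 and 5, then 3, 15 and 14 from the thaliana allele. Its mean log2 ratio was 2.41 ± 0.18 (adjusted p = 2.21e-06), and the second allele was higher in 9 of 9 plants.

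The zinc uptake family gene ZIP6 had medians of 80 reads for the second and 6 for the thaliana allele (log2 ratio 3.34 ± 0.14). NRAMP3, which releases metals from the vacuole, had medians of 50 and 4 (3.12 ± 0.15). IRT3, another zinc and iron uptake transporter, averaged 107.7 and 15.8 reads (2.85 ± 0.25). Further genes in this direction were the ferritin FER4 at 1.82 ± 0.18, NAS2, a nicotianamine synthase that makes a metal chelator, at 1.62 ± 0.23, the plastid pump HMA1 at 1.22 ± 0.14, ZIP4 at 1.20 ± 0.16 and the metal chelate transporter YSL1 at 1.03 ± 0.16. NRAMP4, NAS3, YSL3 and HMA5 were also called, between 0.36 and 0.93. The copper uptake gene COPT2 (−1.11 ± 0.22) and NAS4 (−0.95 ± 0.22) were higher from the thaliana allele. The metallothionein MT3, the most highly read of the list, was at 0.26 ± 0.10 with adjusted p = 0.0538.

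These ratios were also set against the other hybrid. MTP1 (ZAT) in Colxhalleri-labelled plants had 25, 98 and 24 second allele reads in cold, 54, 27 and 74 in dehydration and 14, 61 and 67 in standard plants, against 20, 79 and 18, then 36, 19 and 44, then 9, 36 and 32 from the thaliana allele. The ratio thus lay between 2.71 and 3.98 in ColxMN47-labelled and between 0.31 and 1.04 in Colxhalleri-labelled plants, a mean difference of 2.81 ± 0.13 (limma adjusted p = 2.09e-10). HMA4 averaged 2.41 in ColxMN47-labelled and 0.0045 in Colxhalleri-labelled plants, a difference of 2.41 ± 0.22 (adjusted p = 6.00e-07). The plants of the 2 hybrids did not overlap for ZAT, HMA4, ZIP6, NRAMP3, IRT3 and HMA1, where 3.38% of all genes tested in both showed no overlap. Over the 22 metal genes tested in both hybrids, 11 had a higher ratio in ColxMN47-labelled plants, where 10.6% of all genes did, and 2 had a lower one, where 20.2% of all genes did.

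**Figure D3:**
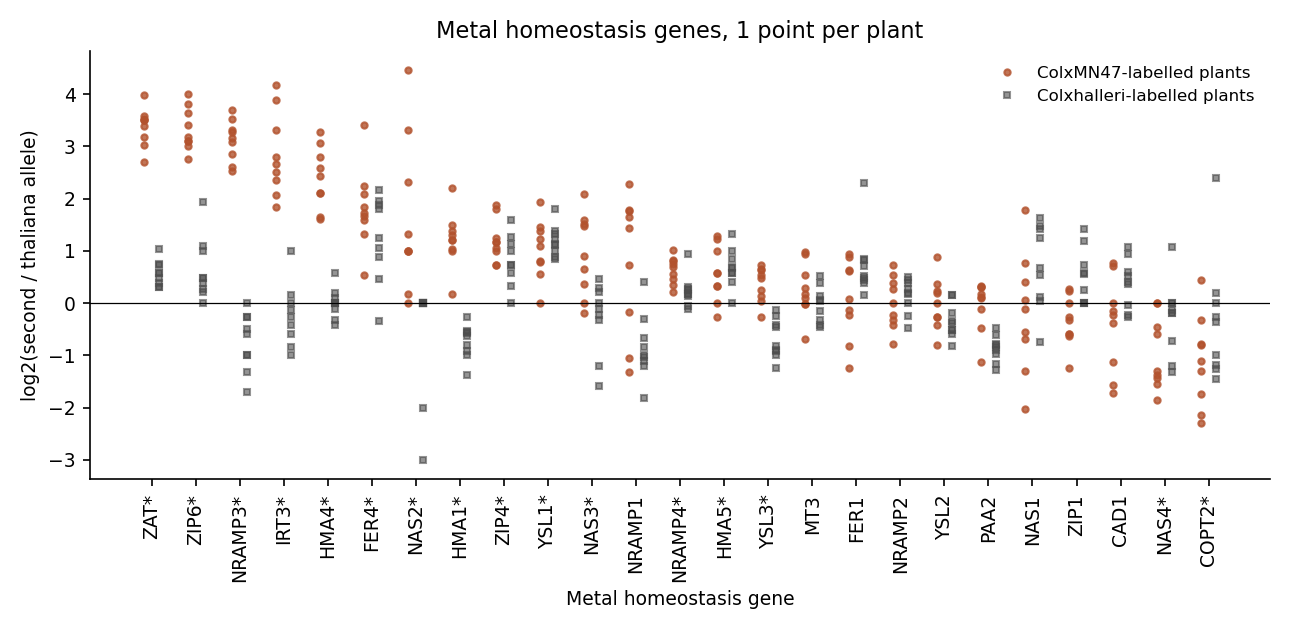
Log2 ratio of the second over the thaliana allele in each plant for the 25 tested metal homeostasis genes, ordered by their mean in ColxMN47-labelled plants; circles are the 9 ColxMN47-labelled and squares the 9 Colxhalleri-labelled plants, and a star marks an adjusted p below 0.05 in the first. The circles of ZAT, ZIP6, NRAMP3, IRT3, HMA4 and HMA1 lie above all their squares.

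Among genes of photosynthesis carried by the nucleus, 2 of 25 tested were higher from the second allele and 10 from the thaliana allele, or 8% and 40% against 21.9% and 24.3% of all tested genes, and the median log2 ratio was −0.20. Without the second dehydrated replicate the counts were 4 and 10 and the median −0.13. Centring also gave 4 and 10, and library weights gave 4 and 11. FBA1, a plastid aldolase of the Calvin cycle, had 204, 210 and 378 second allele reads in cold plants, 744, 829 and 475 in dehydrated plants and 1365, 814 and 556 in standard plants. Its thaliana allele had 462, 546 and 569, then 2050, 3167 and 1077, then 3235, 2417 and 1817. The thaliana allele was higher in 9 of 9 plants (−1.36 ± 0.11; limma adjusted p = 4.87e-06). Other Calvin cycle genes were called the same way by smaller amounts: GAPB at −0.63 ± 0.12, PRK at −0.42 ± 0.14, GAPA at −0.39 ± 0.13 and SBPASE at −0.31 ± 0.11. The light-harvesting genes LHCA4 (−0.35 ± 0.07), LHCA1 (−0.32 ± 0.07) and LHCB6 (−0.41 ± 0.09) were also higher from the thaliana allele. PSBO2, of the oxygen-evolving complex, was higher from the second (0.50 ± 0.10).

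The 10 genes with the highest summed values were all of this kind, and 9 of them were not called. RBCS1A, a small subunit of Rubisco, had a lowest, median and highest value of 294, 6530 and 23989 for the second allele and 378, 7655 and 29442 for the thaliana allele, with a log2 ratio of −0.04 ± 0.07. Its 95% interval lay within −0.5 to 0.5, as did those of Rubisco activase, RCA (−0.12 ± 0.08), PSBR (0.09 ± 0.08) and LHCB3 (−0.17 ± 0.07). RBCS1A has near-identical copies, so that reads may be shared among them. In cold replicate 2 the values of the 10 genes lay close together. They ran from 1559 to 2033 for the second allele and from 1492 to 1558 for the thaliana allele. In cold replicate 1 the thaliana allele ran from 2500 to 2874, apart from LHCA3 at 77. In cold replicate 3 it ran from 2822 to 3355, apart from PSAF at 256. The mean ratios and intervals above include these cold plants. In standard replicate 2 the thaliana allele ranged from 3126 to 29442. LHCA4 had a log2 ratio of 0.07 in cold, −0.54 in dehydrated and −0.58 in standard plants. Whether high values were limited in cold plants, which would draw their ratios toward 0, was not tested.

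Of 179 ribosomal protein genes tested, 33 were higher from the second allele and 63 from the thaliana allele, or 18.44% and 35.2% against 21.9% and 24.3% of all tested genes, with a median log2 ratio of −0.21. Without the second dehydrated replicate the counts were 41 and 57 of 180 and the median −0.12, beside 3054 and 2517 of all 11686 genes then tested. The cytosolic genes AT3G07110 (−1.79 ± 0.11), AT1G54217 (2.31 ± 0.15) and AT5G15520 (1.60 ± 0.12) show that single members lay far to either side.

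Cytochrome P450 genes, which oxidise hormones and defence compounds, were called in 72.34% of the 47 tested, against 46.2% of all tested genes. The second allele was higher in 22, or 46.81% against 21.9% of all, and the thaliana allele in 12, or 25.53% against 24.3%. The difference was at least 2-fold in 18 and 6 of them. CYP709B2 (chr2:19289087-19291632) had the largest ratio of these genes, with 522, 202 and 393 second allele reads in cold plants, 227, 53 and 331 in dehydrated plants and 210, 231 and 109 in standard plants. Its thaliana allele was listed at 1, 0 and 1, then 1, 0 and 9, then 0 in all 3 (log2 ratio 7.04 ± 0.18; limma adjusted p = 1.57e-09). CYP82F1 was at 4.02 ± 0.16, and CYP71B2, higher from the thaliana allele, at −3.44 ± 0.18.

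Glucosinolate genes make the mustard oil precursors of the family. CYP79F2, of the branch from methionine, had medians of 113 and 17 reads for the second and the thaliana allele (2.94 ± 0.12), with a near-identical neighbour that could share its reads. The regulators of that branch MYB28 (−0.997 ± 0.254) and MYB29 (−1.40 ± 0.39) were higher from the thaliana allele. So were MYB34 (−2.15 ± 0.17), CYP79B2 (−1.60 ± 0.16) and CYP81F2 (−1.53 ± 0.31) of the branch from tryptophan. MYB51 (0.41 ± 0.16) and CYP79B3 (0.31 ± 0.17), also of the tryptophan branch, did not pass the test. In all, 3 of 14 tested genes were higher from the second allele, or 21.43% against 21.9% of all genes, and 5 from the thaliana allele, or 35.71% against 24.3%.

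Aquaporins, the water channels, were called in 10 of 12 tested genes, or 83.33% against 46.2% of all genes. The second allele was higher in 4, or 33.33% against 21.9%, and the thaliana allele in 6, or 50% against 24.3%. PIP1B had 240, 3 and 202 second allele reads in cold plants, 361, 217 and 427 in dehydrated plants and 4, 272 and 10 in standard plants, against 1034, 8 and 816, then 1294, 1246 and 1246, then 14, 1004 and 56 from the thaliana allele. The plants thus differed greatly in level, while the thaliana allele was higher in 9 of 9 (−1.89 ± 0.14; limma adjusted p = 2.28e-06). PIP2A (−1.10 ± 0.11) and the vacuolar DELTA-TIP (−1.71 ± 0.18) lay the same way. NLM1, of the NIP class, had medians of 36 and 1 for the second and the thaliana allele (4.24 ± 0.32).

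**Figure D4:**
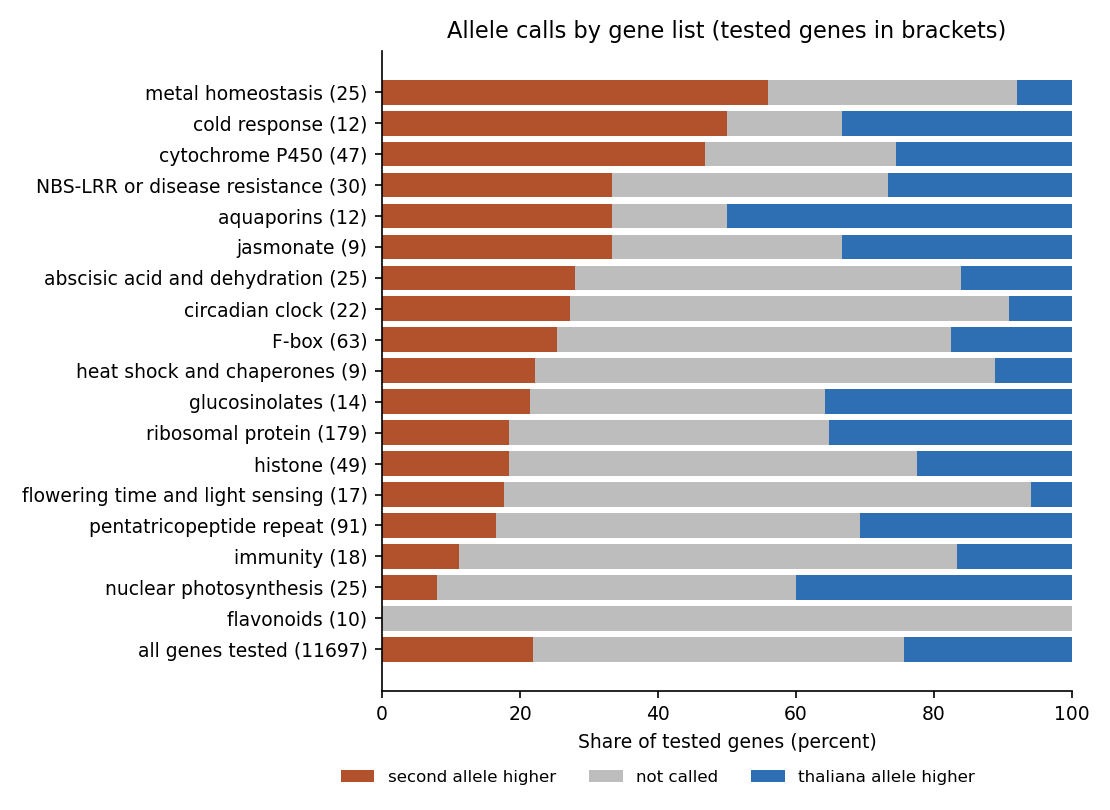
Share of tested genes with the second allele higher, not called and with the thaliana allele higher, by gene list, with the number of tested genes in brackets and all 11697 genes at the bottom. Metal homeostasis has the longest bar toward the second allele, 56%, and aquaporins the longest toward the thaliana allele, 50%.

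Genes of the cold response were called in 10 of 12 tested, or 83.33% against 46.2% of all genes. The second allele was higher in 6 (50% against 21.9% of all genes) and the thaliana allele in 4 (33.33% against 24.3%). RD29A (LTI78) had 90, 59 and 197 second allele reads in cold plants, 1636, 578 and 173 in dehydrated plants and 48, 59 and 34 in standard plants. From the thaliana allele it had 4, 17 and 18, then 877, 256 and 14, then 3, 18 and 7. The second allele was higher in 9 of 9 plants (2.48 ± 0.36; limma adjusted p = 8.09e-04), by the least in the 2 dehydrated plants with the highest levels. COR47, a dehydrin, was at 0.78 ± 0.11, ZAT12 (RHL41), a stress zinc finger, at 0.98 ± 0.18, and CAMTA3 (SR1), a calmodulin-binding activator of the CBF genes, at 0.53 ± 0.11. CBF2, a transcription factor that binds the CCGAC core, was higher from the thaliana allele (−2.60 ± 0.48), in 6 plants with the others equal. Its second allele averaged 0.11 reads and its thaliana allele 18.2, so the added 1 bears on the size of its ratio. HSFC1 (−0.96 ± 0.13) and RCI2A (−1.20 ± 0.24) were also higher from the thaliana allele. HSFC1 averaged −0.78 in cold, −2.19 in dehydrated and 0.11 in standard plants. In standard plants it had only 4, 0 and 0 second allele reads and 3, 0 and 0 thaliana allele reads. The added 1 thus bears on its standard mean, which does not show balance.

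In the abscisic acid and dehydration list 7 of 25 tested genes were higher from the second allele and 4 from the thaliana allele. The 44% called is near the 46.2% of all genes, and the 28% and 16% by direction stand beside 21.9% and 24.3%. P5CS1 had 4, 29 and 3 second allele reads in cold plants, 3, 10 and 18 in dehydrated plants and 2, 6 and 1 in standard plants, against 117, 294 and 55, then 64, 57 and 45, then 30, 152 and 24 from the thaliana allele. The thaliana allele was higher in every plant (−3.43 ± 0.26; limma adjusted p = 4.99e-06). The receptor-side genes of the pathway went both ways: the phosphatase ABI1, a brake on the pathway, was at −1.26 ± 0.11 and the receptor PYL4 at −0.81 ± 0.18, while the related phosphatases ABI2 (0.85 ± 0.15) and PP2CA (0.95 ± 0.18) were higher from the second allele. For synthesis of the hormone, NCED3 was at 0.86 ± 0.20 and ABA2 at −1.59 ± 0.20. Among targets, RD20 was at 1.95 ± 0.20 and RD22 at 0.72 ± 0.09.

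Jasmonate genes gave 3 calls in each direction among 9 tested, 33.33% each way against 21.9% and 24.3% of all genes. VSP2, a storage protein induced by wounding, had medians of 225 and 44 reads for the second and the thaliana allele (2.196 ± 0.166), and the regulator MYC2 was at 0.61 ± 0.10. The synthesis enzymes LOX2 (−1.18 ± 0.15), LOX3 (−0.91 ± 0.25) and OPR3 (−0.62 ± 0.17) were higher from the thaliana allele.

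The circadian clock list had 6 of 22 tested genes higher from the second allele and 2 from the thaliana allele, or 27.27% and 9.09% against 21.9% and 24.3% of all genes. Without the second dehydrated replicate these were 8 and 1. Toward the second allele were LNK1 (AT5G64170) at 0.83 ± 0.09, LNK2 (AT3G54500) at 0.54 ± 0.12, GI at 0.74 ± 0.12, FKF1 at 0.74 ± 0.19, PRR3 at 1.39 ± 0.26 and PRR5 at 0.84 ± 0.25. LUX (PCL1), of the evening complex, was at −1.93 ± 0.21 with the thaliana allele higher in 9 of 9 plants, and TOC1 was at −0.62 ± 0.21. The morning genes CCA1 (0.12 ± 0.18) and LHY (−0.52 ± 0.32) did not pass the test.

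Of 17 flowering and light sensing genes 3 were higher from the second allele and 1 from the thaliana allele, so that 23.53% were called against 46.2% of all genes. Without the second dehydrated replicate the counts were 5 and 1. The floral repressor FLC was higher from the thaliana allele (−0.59 ± 0.11) and SVP, its partner, from the second (0.71 ± 0.12), each in 9 of 9 plants. Of 18 immunity genes 2 were higher from the second allele and 3 from the thaliana allele, or 27.78% called against 46.2% of all genes. Without the second dehydrated replicate they were 1 and 2 of 16. The chitin receptor kinase CERK1 (0.41 ± 0.12) and PAD3 (0.86 ± 0.23), of camalexin synthesis, were higher from the second allele. The receptors ZAR1 (−0.83 ± 0.11) and RPS2 (−1.02 ± 0.16) and EDS5 (−0.71 ± 0.20), a transporter of salicylic acid synthesis, were higher from the thaliana allele.

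Allele differences were also called for each treatment mean of 3 plants, with the spread shared over all 9 plants. In cold plants the alleles differed in 2466 genes (limma adjusted p below 0.05), 21.1% of those tested, in dehydrated plants in 2639, or 22.6%, and in standard plants in 2233, or 19.1%. These counts rest on few plants. The cold count was 1032, 1252 and 1226 without cold replicate 1, 2 and 3 in turn, and the standard count was 1396, 1184 and 1109 without standard replicate 1, 2 and 3. The dehydration count was 1613 without its first replicate. Because the spread is shared, plants of another group also moved the counts. Without dehydration replicate 2 the cold count was 3222 and the standard count 2909. In dehydrated plants the calls were 863 toward the second and 1776 toward the thaliana allele, and with each plant centred on its own median ratio they were 1583 and 1582. Centring moved the median log2 ratio of this group to 0.006, against −0.17 as deposited. Without replicate 2 there were 1033 toward the second and 843 toward the thaliana allele. Without replicate 1 these were 410 and 1203, and without replicate 3 they were 527 and 1742.

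Between treatments few ratios differed. Cold and standard plants differed in 15 genes, 0.128% of those tested, with the ratio lower in cold plants in 12 and higher in 3. Dehydrated and standard plants differed in 11 genes, 0.094%, lower in 10 and higher in 1. Both comparisons use the same 3 standard plants. Dim light is stated for the stressed plants alone and standard material was called leaf samples, so these cannot be told apart from treatment. At an unadjusted p below 0.05 there were 1194 and 1545 genes. The counts were unstable: without single plants the cold count was 5, 8 and 4 (cold replicates 1, 2 and 3), 52 (dehydration replicate 2), 6 and 9 (standard replicates 1 and 2). The dehydration count was 6 without any 1 of the cold plants, 5, 6 and 30 without dehydration replicates 1, 2 and 3, and 3 without any 1 of the standard plants. Both were 0 when the spread was modelled along the mean ratio instead of the level, where the adjusted p values of the genes named next were between 0.0542 and 0.11. Centring gave 21 higher and 38 lower genes for cold, and 4 higher and 8 lower for dehydration, where it moved the median difference to −0.04, against −0.24 as deposited.

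AT5G02240 (chr5:451406-453496), a Rossmann-fold protein, had the largest treatment difference. Its second allele had 4, 5 and 1 reads in cold plants, 9, 8 and 3 in dehydrated plants and 44, 65 and 46 in standard plants. Its thaliana allele had 490, 725 and 167, then 564, 721 and 433, then 74, 260 and 135. The log2 ratio averaged −6.64 in cold, −6.30 in dehydrated and −1.42 in standard plants with no overlap between stressed and standard plants. It was lower in cold than in standard plants by 5.23 ± 0.35 (limma adjusted p = 1.26e-04; −4.89 to −5.51 with 1 plant left out) and differed by −4.88 ± 0.35 between dehydrated and standard plants (adjusted p = 2.58e-04).

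COR15B (chr2:17708593-17710433), a plastid protein that protects membranes in freezing, had a lower ratio in both stressed groups. Its second allele had 29, 40 and 21 reads in cold plants, 110, 52 and 13 in dehydrated plants and 33, 26 and 9 in standard plants. Its thaliana allele had 19, 26 and 21, then 116, 73 and 19, and in standard plants 2, 2 and 1. The mean log2 ratio was 0.40 in cold, −0.36 in dehydrated and 3.00 in standard plants, and the standard plants did not overlap the others. For the cold and the dehydration means the alleles were not called (limma adjusted p = 0.285 and 0.326). The difference from standard plants was −2.60 ± 0.35 in cold (limma adjusted p = 0.0203) and −3.36 ± 0.35 in dehydration (adjusted p = 0.00597). Its average over the 9 plants, 1.01 ± 0.14, therefore stands for no treatment, and it was not called in a fit without treatment terms (adjusted p = 0.102). A neighbouring similar gene, COR15A, could share its reads.

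A further 3 genes were read in the same way. NOL, which degrades chlorophyll b, had 1, 2 and 1 second allele reads in cold plants, 7, 3 and 1 in dehydrated plants and 28, 21 and 27 in standard plants, against 19, 28 and 53, then 34, 29 and 21, then 23, 12 and 16 from the thaliana allele. PFD6, a prefoldin subunit, had 13, 15 and 16, then 31, 26 and 27, then 110, 31 and 55 from the second allele, against 113, 117 and 103, then 123, 112 and 126, then 101, 33 and 86 from the thaliana allele. AT4G08280, a thioredoxin-like gene, went the other way, with 174, 231 and 179, then 197, 245 and 188, then 21, 36 and 33 from the second allele, and 114, 134 and 95, then 148, 162 and 103, then 51, 92 and 85 from the thaliana allele. Its mean log2 ratio was 0.76 in cold, 0.62 in dehydrated and −1.30 in standard plants, and 9 plants fell in 2 sets that did not overlap. The dehydration difference of AT4G08280 was 1.92 ± 0.23 (limma adjusted p = 0.0182). This difference was not called without standard replicate 1, 2 or 3 (limma adjusted p = 0.076, 0.0628 and 0.105). With replicate number as a block in the fit it was not called either (limma adjusted p = 0.0503).

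In 2 more of the 15 genes of the cold comparison, named after their values were seen, reads came almost wholly from the second allele. AT5G44990, a glutathione S-transferase family gene, had 55, 44 and 21 second allele reads in cold plants, 25, 13 and 37 in dehydrated plants and 0, 0 and 1 in standard plants. Its thaliana allele was listed at 0 in all but 2 dehydrated plants, each at 1. AT2G25150, an acyltransferase family gene, had 3, 4 and 9 second allele reads in cold plants, 19, 28 and 127 in dehydrated plants and 326, 149 and 192 in standard plants, and at most 2 thaliana allele reads in any plant. For these genes the ratio follows the level of the second allele.

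**Figure D5:**
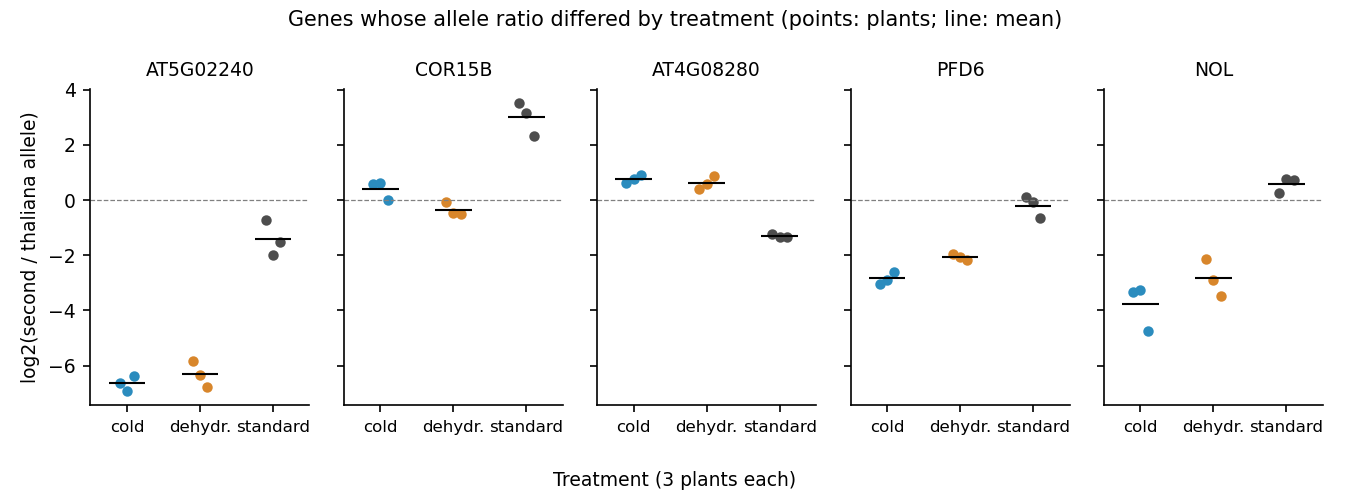
Log2 ratio of the second over the thaliana allele in cold, dehydrated and standard plants for 5 genes; points are plants, 3 per treatment, and lines are means. In AT5G02240, COR15B, PFD6 and NOL the standard plants lie above the others, and in AT4G08280 below.

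The ColxMN47-labelled ratios were last set beside those of the Colxhalleri-labelled plants, gene by gene. Of 11193 genes tested in both, 3444 had ratios that differed (limma adjusted p below 0.05), or 30.8%. The ratio was higher in ColxMN47-labelled plants in 1187, or 10.6%, and lower in 2257, or 20.2%. With each plant centred on its median these were 1703 and 2070. In 378 genes, 3.38%, the 9 plants of the hybrids did not overlap at all. Of 2355 genes called toward the second allele in ColxMN47-labelled plants, 86.33% had a positive mean ratio in Colxhalleri-labelled plants, against 54.53% of all genes. Of 2791 called toward the thaliana allele, 76.82% were negative there, against 45.47% of all genes. Pearson's r of the mean ratios was 0.59 across 11193 genes, which share the reference genome, the genotype of the thaliana allele and each gene's level.

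Of the largest differences between the hybrids, 5 were named in each direction. The first 5 had a higher ratio in ColxMN47-labelled plants. LHCB2.3, a light-harvesting protein with near-identical copies, was at 0.07 in ColxMN47-labelled and −3.93 in Colxhalleri-labelled plants (difference 4.00 ± 0.22). The lipase-like TLL1 was at −0.14 and −4.48 (4.34 ± 0.21), the ethylene response factor ERF2 at 0.09 and −3.39 (3.48 ± 0.22) and the aldolase-type gene AT1G63290 at −0.70 and −5.19 (4.49 ± 0.36), in the same order. AT1G52590, a thiol-disulfide oxidoreductase family gene, was at 2.75 in ColxMN47-labelled and −1.04 in Colxhalleri-labelled plants (3.79 ± 0.73). The other 5 were toward a lower ratio in ColxMN47-labelled plants. AT5G02240 was at −4.79 in ColxMN47-labelled and 0.09 in Colxhalleri-labelled plants (−4.87 ± 0.17; limma adjusted p = 4.27e-12). AT5G18150 was at −3.71 and 1.01, the jagunal-like gene AT5G51510 at −3.30 and 1.13, the auxin efflux carrier family gene AT1G76520 at −2.98 and 1.46 and the KRR1 family gene AT3G24080 at −4.99 and −0.78. The ColxMN47-labelled average of AT5G02240 covers −6.64 in cold, −6.30 in dehydrated and −1.42 in standard plants. No overlap between the plants of the hybrids was a condition for naming these 10 genes.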

How the data were processed

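RNA-seq values were deposited for each allele of each gene in 18 libraries of 1 plant each, 6 groups of 3 plants by labelled cross and treatment. The deposited value is a score: from the values, a read number divided by a library factor, rounded, with 1 added. TopHat2, SAMtools, DESeq2 and TAIR10 are named in the submitters' processing notes, with no role given. The rule for assigning reads to alleles is not known here.

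The log2 ratio of the second over the thaliana allele was fitted with limma 3.58.1 in R 4.3.3, with a mean per treatment and the spread moderated along the log2 mean allele sum, robustly, and Benjamini-Hochberg adjustment over 11697 genes. The trend on level was chosen after seeing the data. A trend on the ratio was tried first and is given as an alternative. No result shown here decides between these forms. The choice matters for the treatment comparisons: the cold change had 15 calls and the dehydration change 11 with the trend on level. Each had 0 with the trend on the ratio. The fit between hybrids used all 18 plants and 11193 genes. In the fits used here, each p-value sets a mean ratio or a difference of means against the moderated spread between plants of the same group.

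Symbols came from RefSeq TAIR10.1 (16404 of 16419 IDs matched). Members and lists (318 genes in 14 lists, and 6 families by product name) were chosen with earlier results of these data known. Genes of the chloroplast and mitochondrial genomes, sought by locus prefix, were absent. Named genes were: those with 1 allele at 0 in all 9 plants, up to 6 per allele by mean sum; the 10 largest called ratios per direction with a mean sum of at least 50, both alleles above 0 in at least 5 plants and all 9 plants on 1 side; the 10 highest sums; the 4 highest sums with an interval within −0.5 to 0.5; 4 per list by p; 3 per treatment change; and 5 per direction between hybrids. Genes named between hybrids had also to be called, with a mean sum of at least 50 in each hybrid and no overlap between hybrids. Further list members were named after their values were seen. Files give no unscaled counts, so no counting intervals are given.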

Additional observations from a re-analysis of the deposited data

Results flagged for a closer look

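The second replicate of the dehydrated ColxMN47-labelled plants stood apart from the other 8, with a second allele share of 38.97% and a median log2 ratio of −0.585. It also stood apart in the ratios of PSBO1 (−0.77), PSAF (−0.46), PSAD-1 (−0.47), GAPB (−1.78) and PSBO2 (−0.13), genes of photosynthesis in which it was the lowest plant. What set this plant apart was not tested.

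Single other plants stood apart in 4 genes: AT5G06330 in cold replicate 1 (log2 ratio 6.69), AT4G32590 in standard replicate 1 (−2.48), HTB1 in cold replicate 1 (−3.04) and LHCB2.3 in cold replicate 2 (−0.72). In all, 9 of 112 genes examined had a plant apart, and chance gives about 1 in 20.

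Between hybrids the 10 named genes passed the test of the difference, which was a condition for naming them. The ratio was higher in ColxMN47-labelled plants in AT1G63290 (4.49), TLL1 (4.34), LHCB2.3 (4.00), AT1G52590 (3.79) and ERF2 (3.48), and lower in AT5G02240 (−4.87), AT5G18150 (−4.72), AT5G51510 (−4.44), AT1G76520 (−4.43) and AT3G24080 (−4.22), on the log2 scale.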

How the results depend on the processing

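Of the 92 named genes called over the 9 plants, 88 kept their call and direction under every alternative tried. COR15B lost it without treatment terms, SPA1 and SCR without single plants and EDS5 with all 18 libraries in 1 fit; none reversed. The 10 named differences between hybrids kept their calls. The 6 named treatment changes lost theirs under at least 1 alternative, and the cause was not tested.

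With a mean sum of at least 50, which tests fewer genes, the counts of calls were 2734 over 9 plants, 1408 in cold, 1547 in dehydration, 1138 in standard and 1642 between hybrids. With library weights they were 4537 in cold plants, 103 for the cold change and 5 for the dehydration change. The cold change had 4 calls without a filter, 59 centred, 142 with all 18 libraries and 0 with the spread along the mean ratio. The dehydration change had 19, then 204 with all 18 libraries, and 0 with the spread along the mean ratio. Leaving out 1 plant at a time gave 4583 to 5571 calls over 9 plants, 1032 to 3222 in cold, 1613 to 2602 in dehydration, 1109 to 2909 in standard, 4 to 52 for the cold change, 3 to 30 for the dehydration change and 2899 to 3594 between hybrids.

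Pairing by replicate number was not seen. Deviations of same-numbered plants correlated from −0.19 to 0.30 over 9 pairs, and those of differently numbered plants from −0.39 to 0.39. Of 18 comparisons, 4 were highest within their own number. The ranges overlap, so these values cannot exclude pairing. With the replicate block there were 5252 calls over 9 plants, 2318 in cold, 2438 in dehydration, 2059 in standard, 15 for the cold change, 4 for the dehydration change and 3411 between hybrids. Unscaled depth is unknown, so the precision of low values cannot be stated.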

Other observations

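For families grouped by product name, counts stand beside 21.9% of all tested genes higher from the second allele and 24.3% from the thaliana allele. F-box genes, which mark proteins for degradation, had 16 of 63 tested genes higher from the second allele and 11 from the thaliana allele (25.4% and 17.46%), with AT4G34550 at a log2 ratio of 3.26 ± 0.18 and SKP2A at 1.66 ± 0.12. Pentatricopeptide repeat genes, which process organelle RNA, had 15 of 91 higher from the second allele and 28 from the thaliana allele (16.48% and 30.77%). EMB3123 was at 1.94 ± 0.15 and AT2G17525 at −2.26 ± 0.20. Disease resistance genes had 10 of 30 toward the second allele and 8 toward the thaliana allele (33.33% and 26.67%), from AT5G46260 at 1.92 ± 0.20 to CW9 at −2.50 ± 0.22. Histone and histone-related genes had 9 and 11 of 49 (18.37% and 22.45%), with the H2A gene HTA8 at −1.71 ± 0.25; near-identical copies could share reads.

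None of the 10 tested flavonoid genes was called (limma). Without the second dehydrated replicate 4 of 11 were higher from the second allele. Of 9 heat shock genes, HSP101, a disaggregase (1.19 ± 0.18), and HSFB2A (0.99 ± 0.18) were higher from the second allele and CLPC1, a plastid chaperone, from the thaliana allele (−0.66 ± 0.10). Of 8 floral organ markers 6 were listed and none reached the limit on level. Of 8 root markers SCR and SHR were tested, and SCR was called at 0.41 ± 0.14; without the second dehydrated replicate both were called.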
